A study of Mus musculus with 40 samples.

Results

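Genes that rose late, or that fell after an early peak, were sought by comparing hearts of CM-Il11-Tg mice 6 weeks after tamoxifen with hearts of the same genotype 1 week after it, in 15 of the 40 libraries of the series. The 15 libraries, each made from polyA RNA of the heart of a separate mouse, are 4 male and 4 female hearts at 1 week and 3 male and 4 female hearts at 6 weeks, chosen by the condition and sex in their labels. The labels name the tissue as heart, and the paper describes it as left ventricular. CM-Il11-Tg mice are heterozygous for MCM, a tamoxifen-activated MerCreMer recombinase driven by the α-MHC promoter of cardiomyocytes, and for *Rosa26-Il11*, a mouse *Il11* transgene that recombination switches on. Tamoxifen was given at 20 mg/kg on 5 consecutive days from 8 weeks of age. The controls carry MCM but not the transgene (MCM Cre/+ :R26 +/+) and received tamoxifen, the uninduced group carries both alleles and received none, and the strains crossed were C57BL/6N and C57BL6/J. The later hearts also come from older mice and the controls carry a single time label, so age and time since tamoxifen cannot be told apart. A further male library was left out because its title names the control group and its description 6 weeks, as was a second male library with the opposite conflict.

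IL11 is a cytokine of the IL6 family that signals through its receptor and gp130 to STAT3, and stromal cells such as fibroblasts respond to it. Tissue inflammation often opens with cytokines and neutrophils and is later carried by monocyte-derived cells and lymphocytes. MHC class II molecules present peptides to CD4+ T cells and are made mainly by dendritic cells, B cells and activated macrophages under the control of the transactivator CIITA.

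The recovered depth was 20345999 to 27755356 reads per male library at 1 week and 27258449 to 49961134 at 6 weeks, and 21738625 to 26546264 and 20806844 to 27521821 in females. *Il11* was at 351, 410.4, 375 and 712 CPM in the male hearts at 1 week and at 485, 407 and 819 at 6 weeks, and at 461, 447, 414 and 614 and 497, 436, 328 and 590.5 in the female hearts. Its mean in controls was 0.0867 CPM in males and 0.0886 in females. The 1- and 6-week ranges overlapped in both sexes, with a log2 difference of 0.298 in males (exact permutation test, two-sided, p = 0.4, where the smallest possible is 0.0571) and of -0.0801 in females (p = 0.8, smallest possible 0.0286). Reads on *Il11* come from the transgene and the endogenous gene alike. *Myh6*, the main cardiomyocyte myosin, was at 10751 to 26406 CPM in all 15 libraries. Atrial *Myl7* was at 0 to 0.527 CPM in 6 of the 8 female libraries but at 52.3 in replicate 2 at 1 week and 345.7 in replicate 2 at 6 weeks. Replicate 4 of the male 6-week group held *Hba-a1*, a haemoglobin gene, at 5733 CPM against 744.6 and 825.7 in the others and stood farthest from its group over the genes.

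Values are CPM, reads that the authors scaled for library size. Fold changes are log2 differences on log2(CPM + 0.5), 6 minus 1 weeks, given with the standard error (SE) and the limma p adjusted over all genes, and a gene was called at an adjusted p under 0.05 with no minimum fold. The pseudocount of 0.5 makes the change of genes with few reads look smaller. Sexes were tested separately, and a joint fit gave the average of the male and the female change. The replicates are separate mice, and the p-values measure the spread between these mice. In bulk tissue, fewer cells of a type and less RNA per cell cannot be told apart.

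In male hearts 28 of 16931 genes were called, 22 higher and 6 lower at 6 weeks (0.165% of the genes, 0.13% higher and 0.0354% lower). In female hearts it was 175 of 16956, 151 higher and 24 lower (1.03%, 0.891% and 0.142%). Averaged over the sexes 308 of 16627 genes were called, 227 higher and 81 lower (1.85%, 1.37% and 0.487%). The genes called in each sex on its own were 19, all in the same direction, which is 67.86% of the male and 10.86% of the female calls. In males 9.11% of all genes, and in females 6.48%, had 6-week libraries that did not overlap the 1-week libraries. The 19 genes were *F5*, *Efemp1*, *Wfikkn2*, *H2-Aa*, *H2-Ab1*, *H2-Eb1*, *H2-DMa*, *H2-DMb1*, *Cd74*, *Ciita*, *Cxcl13*, *Tnfsf13b*, *Cd209a*, *C4a*, *C4b*, *Csf2rb*, *Dlk1* and *Gm6093*, which were higher, and *Adamtsl2*, which was lower. Many of their male calls were not stable over the 18 alternative settings. The male call was kept in all 18 for *F5*, in 6 for *H2-Ab1* and in 7 for *C4a*. It was kept in 8 for *H2-DMa*, *Cd209a* and *Gm6093* and in 9 for *Cxcl13*, *Dlk1* and *Adamtsl2*. For the other genes it was kept in 10 to 17. The male 6-week libraries were deeper than the male 1-week libraries, and the male count moved with single libraries: without replicate 4 of the 6-week group it was 2, without replicate 1 of that group 136, and with library size as a covariate 3. Without the 2 female libraries that held atrial *Myl7*, the female count was 162 and the average count 231.

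The sexes were set beside each other at the genes called in one of them. All 22 genes called higher in males were also higher in females, 21 of them at an unadjusted p under 0.05 (95.45%, against 8.09% of all genes), with a female median of 1.47. Of the 142 genes called higher in females and tested in males, 124 were higher in males and 66 had an unadjusted p under 0.05 (46.48%, against 7.7% of all genes), with a male median of 0.46. Of the genes called lower, 5 of the 6 male ones were lower in females, 4 of them at an unadjusted p under 0.05 (4.52% of all genes), and 14 of the 23 female ones were lower in males, 8 of them at that p (7.74% of all genes). Over all 16627 genes the male and female log2 fold changes had a Pearson r of 0.0478 and a Spearman rho of -0.108, given as a description over genes that share libraries. A test of the difference between the sexes called 0 genes with limma (0% of the genes, 3001 at an unadjusted p under 0.05) and 0 with edgeR, but 238 with DESeq2. Of the 227 genes called higher on average, 122 were called in neither sex alone, and of the 81 called lower, 65.

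**Figure D1:**
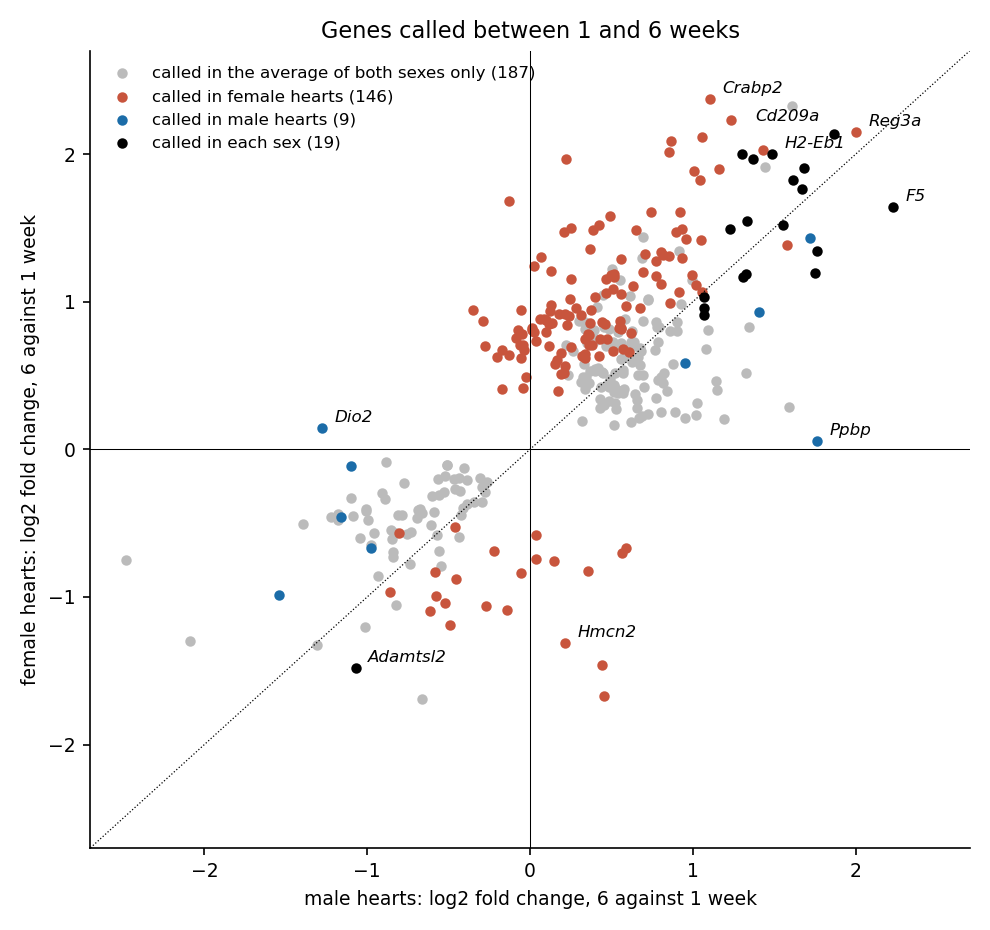
Log2 fold change from 1 to 6 weeks in male hearts (horizontal axis) and female hearts (vertical axis), with a dotted line at equal change. There is 1 point for each gene called on average or in a sex, coloured by where it was called. Genes called in 1 sex and not tested in the other are not drawn. The 19 genes called in both sexes lie in the corners where both changes have the same sign, and the genes called in females alone stretch along the vertical axis.

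Promoters are shown here for a few genes of the clearest rising list, MHC class II, and of the falling list of cell cycle genes. Each line gives the 100 bases before the annotated start, 5′ to 3′ on the gene's own strand, with CCAAT or its reverse complement ATTGG in capitals, the letters of the Y box that class II promoters share and of the CCAAT box of many cell cycle genes. The sequences come from the GRCm39 genome at the GENCODE starts: chr17:34506798-34506897 (minus strand) for *H2-Aa*, chr17:34482083-34482182 (plus) for *H2-Ab1*, chr17:34524713-34524812 (plus) for *H2-Eb1*, chr17:34354460-34354559 (plus) for *H2-DMa*, chr9:70328875-70328974 (minus) for *Ccnb2* and chr11:68936367-68936466 (plus) for *Aurkb*.
H2-Aa: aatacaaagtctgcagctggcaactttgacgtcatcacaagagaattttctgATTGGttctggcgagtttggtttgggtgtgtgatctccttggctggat
H2-Ab1: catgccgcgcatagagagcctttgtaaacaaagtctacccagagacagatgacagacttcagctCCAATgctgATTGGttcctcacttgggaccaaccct
H2-Eb1: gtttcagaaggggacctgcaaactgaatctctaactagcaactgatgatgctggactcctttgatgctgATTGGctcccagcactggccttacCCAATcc
H2-DMa: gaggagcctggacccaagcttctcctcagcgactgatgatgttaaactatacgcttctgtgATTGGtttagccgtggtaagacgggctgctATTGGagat
Ccnb2: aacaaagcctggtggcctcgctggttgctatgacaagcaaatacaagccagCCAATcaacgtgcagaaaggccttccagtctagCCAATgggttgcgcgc
Aurkb: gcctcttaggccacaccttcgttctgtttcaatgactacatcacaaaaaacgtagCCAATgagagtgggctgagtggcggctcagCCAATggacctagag
In the 250 bases before the start, CCAAT on either strand was found in 7 of the 10 class II promoters. It was found in 13 of the 20 cell cycle promoters and in 35.9% of the 13918 promoters of all genes. Every promoter shown above holds a match, while the called genes *Ciita*, *H2-DMb1*, *Ccnb1*, *Cdc20* and *Plk1* had none in these 250 bases. The X box letters CCTNGCAAC were found in 1 of the 10 class II promoters and in 1.3% of all promoters, and TTTGAA, the CHR element of cell cycle genes, in 6 of the 20 and in 12.7%. A match describes the letters only.

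Among the lists of pathways and cell types with 4 or more tested members, MHC class II had the largest share called. Of its 10 tested members 9 were called higher on average, 7 in males and 9 in females, and the list's median was 1.31 on the log2 scale (1.32 in males, 1.46 in females) against -0.0030 over all genes. Summed over the list, the male libraries held 447.1 to 747.4 CPM at 1 week and 1648 to 1918 at 6 weeks, and the female libraries 409.7 to 777, then 1799 to 2152. No library of either 6-week group came near those at 1 week, and the controls, at 197.4 to 335.2 in males and 160.8 to 174.3 in females, were below both. The 3-week hearts spread from 713.8 to 2039 in males and from 1125 to 1633 in females. Uninduced hearts held 339.3 to 403.8 and 303.2 to 707.1. *H2-Aa* encodes the alpha chain of the I-A molecule. *H2-Aa* was at 107, 126, 87.3 and 137 CPM in the male hearts at 1 week and at 322, 350.4 and 411 at 6 weeks. *H2-Aa* was at 125, 142, 76.9 and 98 CPM in the female hearts at 1 week and at 407, 374, 336 and 353 at 6 weeks. In each sex all libraries at 6 weeks were above all of those at 1 week, as was so for 88 genes (0.529% of all), and the log2 fold change was 1.67 ± 0.25 (SE, adjusted p = 0.0075) in males and 1.76 ± 0.22 (SE, adjusted p = 0.00015) in females. *H2-Aa* and *H2-Eb1* overlap on opposite strands of chromosome 17 (34493404 to 34506798 and 34504236 to 34535648 in GRCm39), so that their reads are not fully separate unless strand was used in counting. The I-A beta chain gene *H2-Ab1* (34476663 to 34488393) does not overlap them, with averages of 1.67 ± 0.19 (SE, adjusted p = 3.79e-07) for *H2-Ab1* and 1.74 ± 0.18 (SE, adjusted p = 4.77e-08) for *H2-Eb1*.

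The other class II genes that rose are those of peptide loading and control. *Cd74*, the invariant chain that escorts class II molecules, rose by 1.72 ± 0.18 (SE, adjusted p = 4.77e-08) on average. *Cd74* was at 261, 351, 181 and 219 CPM in the female hearts at 1 week and at 849, 966, 787 and 885 at 6 weeks. The loading chaperone genes *H2-DMa*, *H2-DMb1* and *H2-DMb2* rose by 1.26, 1.36 and 1.23, and *H2-Oa*, whose product restrains that chaperone, by 0.95 ± 0.16 (SE, adjusted p = 0.000324). *H2-Ob* was not called, at 0.58 ± 0.18 (SE, adjusted p = 0.0988). *Ciita* encodes the class II transactivator. *Ciita* was at 3.31, 4.2, 2.79 and 3.63 CPM in the male hearts at 1 week and at 8.57, 9.29 and 9.98 at 6 weeks. *Ciita* was at 4.09, 6.14, 3.6 and 2.82 CPM in the female hearts at 1 week and at 10.4, 8.33, 12 and 8.32 at 6 weeks. The 6-week values were at least 2 times the highest at 1 week in males and did not overlap them in females, with a change of 1.30 ± 0.21 (SE, adjusted p = 0.0177) and 1.17 ± 0.20 (SE, adjusted p = 0.00344). The male class II count fell to 0 without replicate 4 of the 6-week group or with library size as a covariate, while the average kept 8 to 10 calls under every alternative.

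**Figure D2:**
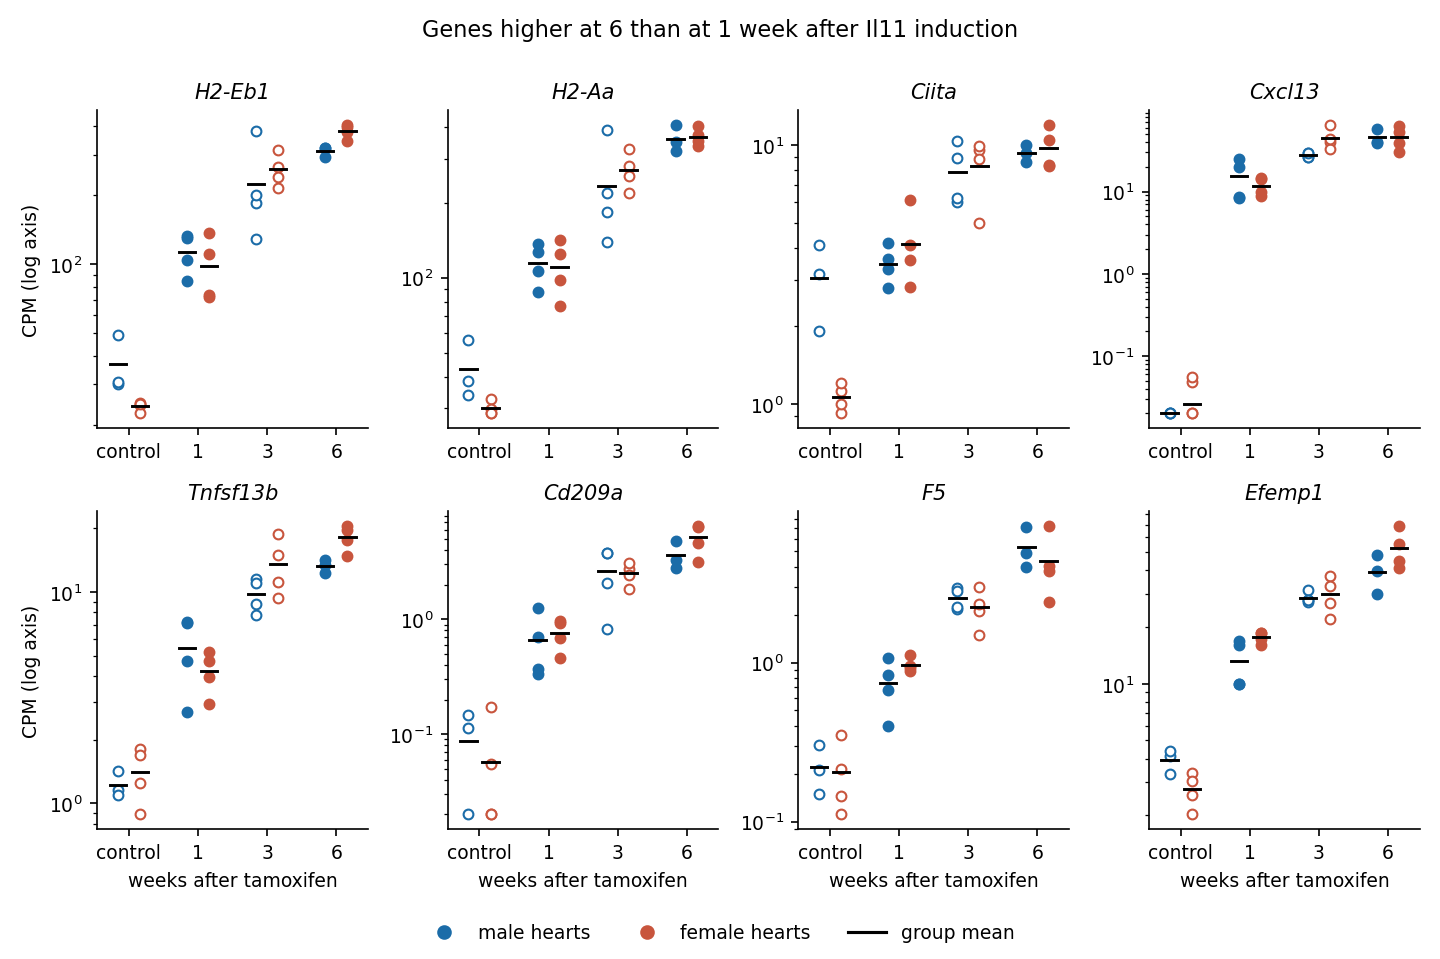
CPM (log axis) of 8 genes that rose, 1 panel a gene, with 1 point a library in control, 1-, 3- and 6-week hearts of males and females and a black bar at the group mean, and values under 0.02 are drawn at 0.02. In all 8 panels the 6-week points of a sex lie above its 1-week points.

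Of 12 dendritic cell markers 4 rose on average and 8 were not called, and the summed list held 82.98 to 101.4 CPM at 1 week against 99.67 to 125 at 6 weeks in males, with 87.64 to 102.3 against 114.2 to 129 in females. *Cd209a*, a lectin of monocyte-derived dendritic cells, was the highest. *Cd209a* was at 0.368, 1.25, 0.698 and 0.337 CPM in the male hearts at 1 week and at 3.25, 4.84 and 2.82 at 6 weeks. *Cd209a* was at 0.925, 0.967, 0.46 and 0.694 CPM in the female hearts at 1 week and at 6.54, 6.36, 3.16 and 4.59 at 6 weeks. Each 6-week library held more than 2 times the highest 1-week value of its sex, and the changes were 1.87 ± 0.35 (SE, adjusted p = 0.0348) and 2.14 ± 0.21 (SE, adjusted p = 2.24e-05), from controls with a mean of 0.0863 and 0.0569 CPM. *Itgax* (CD11c) rose by 1.06 ± 0.14 (SE, adjusted p = 9.69e-06), *Flt3*, the receptor of a dendritic growth factor, by 0.99 ± 0.16 (SE, adjusted p = 0.000176), and the migration receptor *Ccr7* by 0.80 ± 0.18 (SE, adjusted p = 0.0108). The markers of the cross-presenting and conventional subsets *Xcr1*, *Clec9a* and *Zbtb46* were at 0.17, 0.04 and -0.04 and were not called. In females 5 of the 12 listed markers were called higher. They included *Batf3*, at 0.84 in females, which was not called in males, at 0.23, or on average.

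Of 20 macrophage markers 3 rose. The monocyte chemokine receptor *Ccr2* rose by 1.11 ± 0.19 (SE, adjusted p = 0.000379), the galectin gene *Lgals3* by 0.63 ± 0.16 (SE, adjusted p = 0.0233) and the lipopolysaccharide co-receptor *Cd14* by 0.53 ± 0.14 (SE, adjusted p = 0.0446), a call kept in only 9 of 27 alternatives, while *Adgre1* (F4/80) and *Cd68* were at 0.02 and 0.09 and not called. *Ccr2* was at 8.93, 11.9, 4.73 and 5.59 CPM in the female hearts at 1 week and at 22.3, 16.8, 21.2 and 15.3 at 6 weeks. The female values separated without overlap. The list's median was 0.16, and its count fell to 1 in several of the fits that left out a library. The summed macrophage list stood at 697.8 to 855 CPM in males at 1 week and 708 to 1086 at 6 weeks, and at 813.4 to 902 and 894 to 1047 in females, ranges that overlap.

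*Cxcl13* and *Tnfsf13b*, which act in the attraction and survival of B cells, rose in both sexes. *Cxcl13*, the B cell chemokine of lymphoid follicles, lies on chromosome 5 from 96104810 to 96108927. *Cxcl13* was at 8.27, 20, 25.2 and 8.65 CPM in the male hearts at 1 week and at 40.7, 58.5 and 39.5 at 6 weeks. *Cxcl13* was at 8.86, 14.5, 14.1 and 9.85 CPM in the female hearts at 1 week and at 53, 39.1, 63.1 and 30.5 at 6 weeks. The lowest 6-week library exceeded the highest 1-week library in each sex, with 1.68 ± 0.29 (SE, adjusted p = 0.0238) in males and 1.90 ± 0.21 (SE, adjusted p = 5.6e-05) in females. The male call was kept in 9 of 18 alternatives and lost with edgeR and DESeq2, while the female call was kept in all 20. *Tnfsf13b* encodes the B cell survival factor BAFF. *Tnfsf13b* was at 4.72, 7.1, 7.18 and 2.7 CPM in the male hearts at 1 week and at 14.2, 13.5 and 12.2 at 6 weeks. *Tnfsf13b* was at 2.95, 5.21, 3.97 and 4.73 CPM in the female hearts at 1 week and at 17.6, 19.6, 20.6 and 14.8 at 6 weeks. Its 6-week values lay above every 1-week value, by 1.30 ± 0.23 (SE, adjusted p = 0.032) in males and 2.00 ± 0.21 (SE, adjusted p = 3.04e-05) in females. Of the 14 listed chemokines and lymphotoxins, *Tnfsf11* (RANKL) was the other one called on average, at 0.67 ± 0.18 (SE, adjusted p = 0.0381), and it was 1.21 ± 0.23 (SE, adjusted p = 0.00935) in females but 0.13 ± 0.25 (SE, adjusted p = 0.831) in males, with the average call kept in 14 of 27 alternatives. In females 6 of 15 were called, among them *Tnfsf8* (CD30 ligand) at 1.24 ± 0.25 (SE, adjusted p = 0.0115).

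Of 10 B and plasma cell genes 2 rose on average, the immunoglobulin light chain gene *Igkc* by 1.97 ± 0.43 (SE, adjusted p = 0.00907) and the joining chain gene *Jchain* by 1.68 ± 0.39 (SE, adjusted p = 0.0161). *Igkc* was at 2.28, 2.81, 1.66 and 1.05 CPM in the male hearts at 1 week and at 20.8, 2.51 and 5.29 at 6 weeks. *Igkc* was at 2.03, 5.1, 1.92 and 1.91 CPM in the female hearts at 1 week and at 6.5, 30.9, 6.67 and 32.5 at 6 weeks. Replicate 1 in males and replicates 2 and 4 in females were far above the other 6-week hearts. The B and plasma cell count was 0 without male replicate 1 at 6 weeks and 1 without female replicate 2 at 6 weeks, the library with atrial *Myl7*. *Cd79a*, a B cell receptor subunit, was at 0.15 ± 0.28 (SE, adjusted p = 0.88) and was not called. The summed list held 18.39 to 33.29 CPM at 1 week against 23.73 to 79.42 at 6 weeks in males, with 22.12 to 31.92 against 42.14 to 134 in females. The part of these cell types in the class II rise was not tested. Among 12 T and NK cell genes *Cd4* was the only one called on average, at 0.82 ± 0.19 (SE, adjusted p = 0.0122).

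Complement genes rose in part. Of 19 tested, 5 were higher and 1 lower on average, with a list median of 0.33. *C4b* encodes the fourth component, and its reads can be shared with the near-identical *C4a*. *C4b* was at 172, 293, 324 and 264 CPM in the male hearts at 1 week and at 530.2, 508 and 577 at 6 weeks. *C4b* was at 219.5, 350, 259.7 and 213 CPM in the female hearts at 1 week and at 372, 560, 607 and 475 at 6 weeks. The 6-week libraries were all higher in each sex, by 1.07 ± 0.20 (SE, adjusted p = 0.0348) and 0.95 ± 0.16 (SE, adjusted p = 0.00319). *C6*, a part of the membrane attack complex, rose by 1.48 ± 0.20 (SE, adjusted p = 9.46e-06). *C6* was at 0.87, 4.89, 3.23 and 1.84 CPM in the male hearts at 1 week and at 10.1, 6.96 and 7.14 at 6 weeks. *C6* was at 2.21, 3.09, 1.8 and 2.26 CPM in the female hearts at 1 week and at 7.65, 7.56, 9.1 and 4.04 at 6 weeks. Its 6-week hearts were above the 1-week hearts in both sexes. *C4a* followed *C4b* at 0.99 ± 0.15 (SE, adjusted p = 6.67e-05), the regulator gene *Cfi* rose by 0.81 ± 0.20 (SE, adjusted p = 0.0234) and the C1 inhibitor gene *Serping1* by 0.47 ± 0.13 (SE, adjusted p = 0.0464). *C3* was not called, at 0.20 ± 0.15 (SE, adjusted p = 0.628). The one that fell was *Cfd* (adipsin), an adipocyte product, by 1.18 ± 0.31 (SE, adjusted p = 0.0332), and of the 8 adipose markers it was the only one present in both tables. Its call was kept in 14 of 27 alternatives and lost without female replicate 2 at 1 week, the library in which *Cfd* was highest, at 13.9 CPM. The average count ran from 3 to 6 genes over the alternatives.

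Acute phase genes moved in both directions, 4 higher and 1 lower of 14. *Reg3a*, a secreted C-type lectin whose reads may be shared with *Reg3b*, had the largest average change of all genes, at 2.08 ± 0.32 (SE, adjusted p = 9.57e-05). *Reg3a* was at 0.335, 0.599, 1.06 and 1.05 CPM in the male hearts at 1 week and at 9.88, 1.31 and 5.76 at 6 weeks. *Reg3a* was at 0.818, 5.02, 0.878 and 0.867 CPM in the female hearts at 1 week and at 9.08, 16.3, 4.99 and 5.55 at 6 weeks. The male ranges did not overlap, while female replicate 2 at 1 week was above the lowest of the 6-week hearts. Haptoglobin, *Hp*, which binds free haemoglobin, rose by 1.43 ± 0.22 (SE, adjusted p = 9.14e-05). *Hp* was at 45.2, 136, 122 and 69 CPM in the male hearts at 1 week and at 199.7, 200.4 and 134 at 6 weeks. *Hp* was at 34, 49.5, 25 and 32.9 CPM in the female hearts at 1 week and at 162, 108, 134 and 96.9 at 6 weeks. The female hearts separated by time, and the male hearts overlapped at replicates 2 and 4. The serine protease inhibitor gene *Serpina3m* rose by 1.06 ± 0.19 (SE, adjusted p = 0.000896) and the lipopolysaccharide-binding protein gene *Lbp* by 0.81 ± 0.18 (SE, adjusted p = 0.00961). *Serpina3n*, a close relative with which *Serpina3m* may share reads, was not called at 0.56 ± 0.27 (SE, adjusted p = 0.392).

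Some of the genes called in each sex stood outside the lists of pathways and cell types. Clotting factor V, *F5*, on chromosome 1 from 163979289 to 164047846, was called in males under every alternative tried. *F5* was at 0.402, 0.83, 1.06 and 0.674 CPM in the male hearts at 1 week and at 3.98, 4.91 and 7.16 at 6 weeks. *F5* was at 0.889, 1.12, 0.92 and 0.954 CPM in the female hearts at 1 week and at 3.77, 4.04, 7.27 and 2.4 at 6 weeks. Its lowest 6-week value was more than 2 times the highest 1-week value in each sex, and the change was 2.23 ± 0.21 (SE, adjusted p = 2.56e-05) in males and 1.64 ± 0.23 (SE, adjusted p = 0.000411) in females. *Efemp1*, which encodes the matrix glycoprotein fibulin-3, lies on chromosome 11 from 28803150 to 28876825. *Efemp1* was at 9.94, 16.1, 16.8 and 10 CPM in the male hearts at 1 week and at 40, 48.1 and 30.2 at 6 weeks. *Efemp1* was at 18.7, 18.5, 16.1 and 17.3 CPM in the female hearts at 1 week and at 45.1, 55, 69.3 and 41.1 at 6 weeks. The changes were nearly equal, 1.56 ± 0.18 (SE, adjusted p = 0.000462) and 1.52 ± 0.21 (SE, adjusted p = 0.000365), without overlap. *Wfikkn2*, an inhibitor of myostatin and GDF11, rose by 1.44 ± 0.14 (SE, adjusted p = 1.51e-08) on average. *Wfikkn2* was at 16.2, 25.7, 24.1 and 21.5 CPM in the male hearts at 1 week and at 42.6, 73.5 and 53 at 6 weeks. *Wfikkn2* was at 14.1, 18.2, 18.7 and 16.7 CPM in the female hearts at 1 week and at 42.1, 48.5, 55 and 56.5 at 6 weeks. Here too the times separated in each sex. *Dlk1*, an inhibitor of fat cell formation, rose by 1.55 ± 0.20 (SE, adjusted p = 4.55e-06) and *Csf2rb*, the common receptor chain of GM-CSF, IL3 and IL5, by 1.05 ± 0.16 (SE, adjusted p = 0.000109).

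Some genes were called in females and not in males, while for the difference between the sexes limma called 0 genes, against 238 with DESeq2 and 859 with limma without male replicate 1 at 6 weeks. *Crabp2*, a carrier of retinoic acid, had the largest female change. *Crabp2* was at 0.391, 0.558, 0.0836 and 0.0867 CPM in the female hearts at 1 week and at 3.73, 4.55, 3.97 and 1.94 at 6 weeks. *Crabp2* was at 1.07, 1.43, 1.23 and 0.487 CPM in the male hearts at 1 week and at 3.16, 2.51 and 2.61 at 6 weeks. It was called in females at 2.37 ± 0.22 (SE, adjusted p = 1.64e-05) and not in males at 1.11 ± 0.23 (SE, adjusted p = 0.0629). The Wnt antagonist gene *Sfrp4* was at 2.23 ± 0.38 (SE, adjusted p = 0.00282) in females and 1.24 ± 0.30 (SE, adjusted p = 0.109) in males, and *C1qtnf3* at 2.03 ± 0.30 (SE, adjusted p = 0.000636) and 1.43 ± 0.39 (SE, adjusted p = 0.153). Among 25 genes of matrix and fibroblast activation 2 rose on average, the cartilage matrix gene *Comp* by 1.48 ± 0.27 (SE, adjusted p = 0.00118) and fibronectin, *Fn1*, by 0.78 ± 0.21 (SE, adjusted p = 0.0481), the latter losing its call in 17 of 27 alternatives. With edgeR 1 of the list was higher and 1 lower, and with DESeq2 3 were higher and 2 lower. On average 6 of the 25 were negative, the lowest at -1.01. The list's median was -0.08 in males and 0.40 in females. *Comp* was at 37, 196, 53.7 and 28.4 CPM in the female hearts at 1 week and at 159.8, 462, 282 and 179.8 at 6 weeks. Replicate 2, the library with atrial *Myl7*, was the highest at each time. Of the 16 collagen genes 0 rose and 1 fell on average, *Col6a3* by 0.67 ± 0.14 (SE, adjusted p = 0.00718), with a median of -0.39 in males and 0.21 in females.

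**Figure D3:**
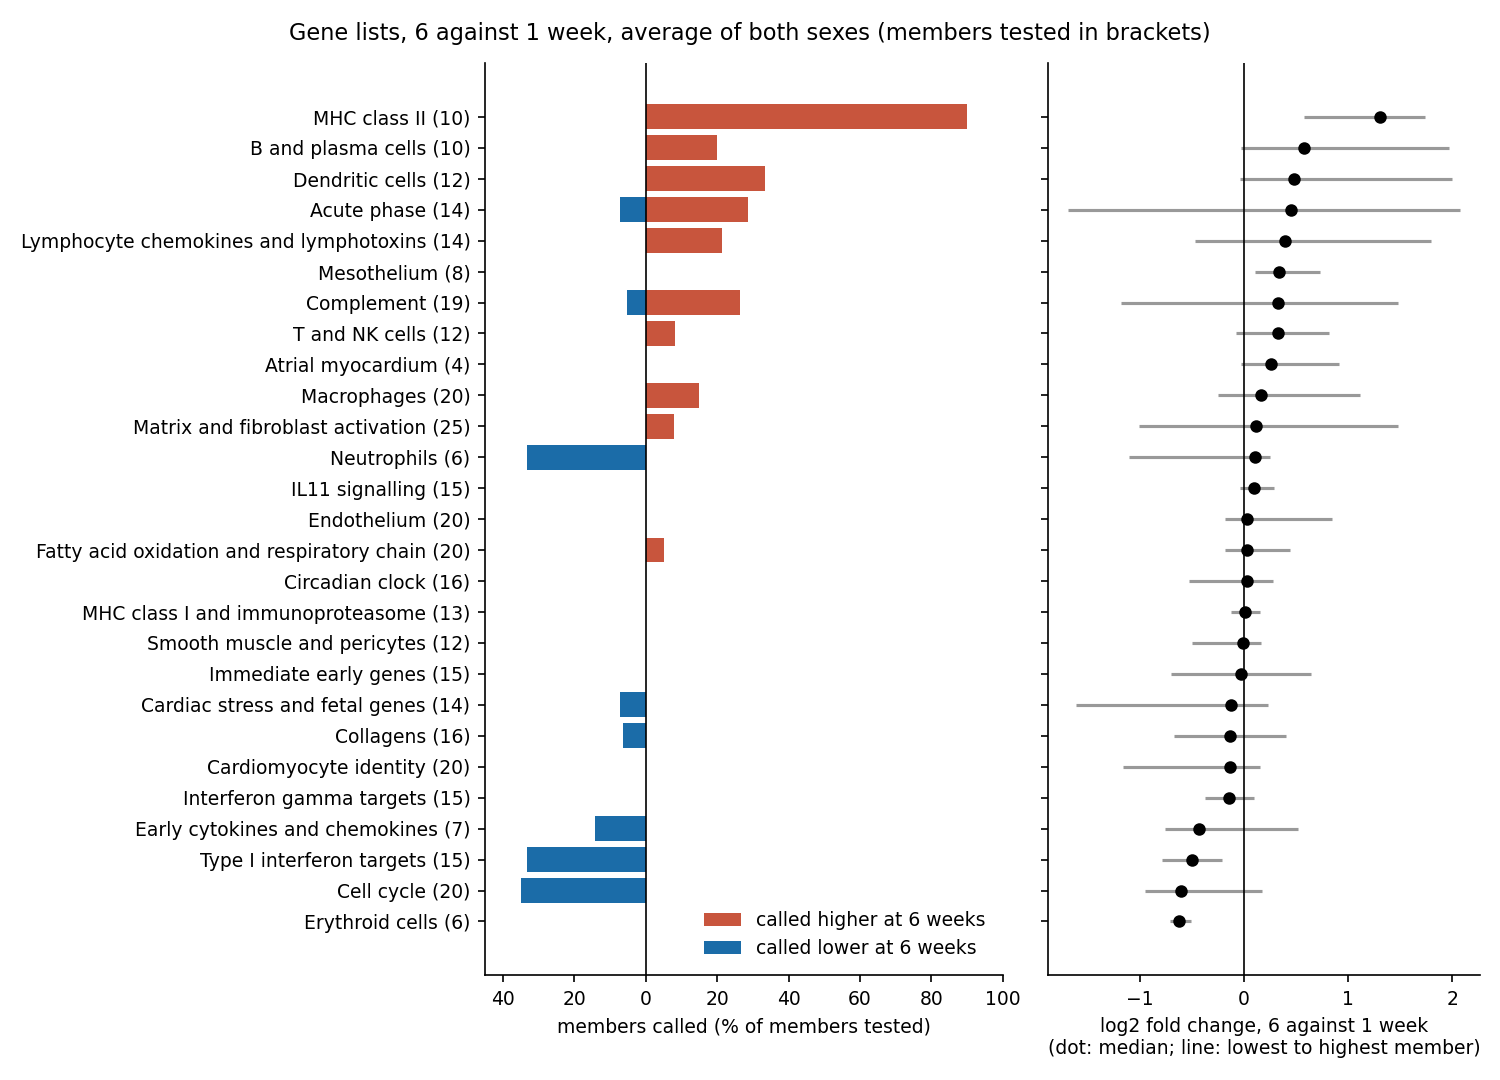
For each gene list with 4 or more tested members, the percentage of members called higher and lower on average over the sexes (bars, from 0) and the median and range of the log2 fold change (points and lines). MHC class II stands apart with 9 of 10 members higher, and the cell cycle and type I interferon lists hold the most genes that were lower.

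Fewer genes fell. *Adamtsl2*, a secreted glycoprotein that binds fibrillin and the latent TGFβ binding protein, on chromosome 2 from 26949885 to 26998993, fell in each sex and was called on average in all 27 alternatives. *Adamtsl2* was at 48.6, 38.1, 38.1 and 38.2 CPM in the male hearts at 1 week and at 16.8, 21.8 and 18.8 at 6 weeks. *Adamtsl2* was at 48.4, 36.8, 40.4 and 32.3 CPM in the female hearts at 1 week and at 13, 13.4, 14.8 and 13.5 at 6 weeks. Every 6-week value was below every 1-week value of its sex, which held in both sexes for 28 genes (0.168% of all), with -1.07 ± 0.20 (SE, adjusted p = 0.0348) in males and -1.48 ± 0.21 (SE, adjusted p = 0.000411) in females. In males the 1-week hearts were above the control mean of 24.1 CPM and the 6-week hearts below it. In females the 1-week hearts were below the control mean of 52.9 already.

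In the average over the sexes, and in neither sex alone, 2 neutrophil genes and 1 early cytokine gene were called lower, all at low levels. Of 6 neutrophil genes *S100a9* and *S100a8*, the calprotectin subunits, fell by 1.11 ± 0.21 (SE, adjusted p = 0.00135) and 0.94 ± 0.20 (SE, adjusted p = 0.00667). The other 4 had positive values, the list's median was 0.11, and the summed list held 25.73 to 42.33 CPM at 1 week against 27.68 to 35.69 at 6 weeks in males, with 19.71 to 48.1 against 26.36 to 61.04 in females, ranges that overlap. *S100a9* was at 1.67, 0.876, 1.5 and 0.524 CPM in the male hearts at 1 week and at 0.267, 0.459 and 0.14 at 6 weeks. *S100a9* was at 2.38, 0.818, 1.8 and 2.21 CPM in the female hearts at 1 week and at 0.793, 0.902, 0.211 and 0.154 at 6 weeks. Male ranges did not overlap, and in females replicate 2 at 1 week was below replicate 2 at 6 weeks. The neutrophil chemokine gene *Cxcl1* fell by 0.76 ± 0.20 (SE, adjusted p = 0.0367), the only 1 of 7 early cytokines called, and lost its call in 13 of 26 alternatives. *Il6* and *Ccl7* were at -0.43 and -0.56 and were not called. The acute phase gene *Saa3* had the largest fall on average, by 1.69 ± 0.34 (SE, adjusted p = 0.00341). *Saa3* was at 1.67, 15.4, 19.4 and 5.32 CPM in the male hearts at 1 week and at 3.76, 0.918 and 0.583 at 6 weeks. *Saa3* was at 6.9, 12.3, 4.01 and 5.72 CPM in the female hearts at 1 week and at 2.3, 5.11, 1.9 and 1.45 at 6 weeks. At 1 week its male values spread more than 11-fold, and male replicate 1 at 1 week was below replicate 1 at 6 weeks.

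Some cell cycle genes fell between 1 and 6 weeks. On average 7 of 20 fell and 19 of 20 had a negative value, with a median of -0.61 (-0.84 in males and -0.41 in females). Tested in each sex alone by limma, 0 of the 20 were called in males and 0 in females. At an unadjusted p under 0.05, 17 were lower in males (7.74% of all genes) but only 4 in females (4.52% of all genes). *Ccnb1* encodes cyclin B1, the cyclin of mitotic entry. *Ccnb1* was at 1.98, 2.4, 1.83 and 1.27 CPM in the male hearts at 1 week and at 0.801, 0.741 and 0.63 at 6 weeks. *Ccnb1* was at 1.53, 3.12, 1.42 and 2.73 CPM in the female hearts at 1 week and at 1.15, 0.988, 1.23 and 0.493 at 6 weeks. All 6-week values were below all 1-week values of the same sex, a fall of 0.90 ± 0.19 (SE, adjusted p = 0.00574). *Top2a*, the topoisomerase of dividing cells, fell by 0.95 ± 0.23 (SE, adjusted p = 0.0232), and the mitotic genes *Ccnb2*, *Cdc20*, *Bub1*, *Aurkb* and *Plk1* fell by 0.84 at most and 0.67 at least. *Mki67* was at -0.75 ± 0.23 (SE, adjusted p = 0.104) and was not called. Outside the list, the mitotic kinesin gene *Kif23* and the cell division gene *Cdca3* were called in males, with falls of 1.16 ± 0.22 (SE, adjusted p = 0.0348) and 1.10 ± 0.21 (SE, adjusted p = 0.0362), and the spindle gene *Knstrn* on average, with a fall of 0.76 ± 0.15 (SE, adjusted p = 0.00333). The male call was kept in 9 of 18 alternatives for *Kif23* and 8 for *Cdca3*. The list's count was 2 without male replicate 4 at 6 weeks, 1 with library size as a covariate, 4 without the female 1-week library with atrial *Myl7* and 2 without both female libraries with atrial *Myl7*.

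Some type I interferon targets fell as well. All 15 had a negative average, with a median of -0.50, and 5 fell: the antiviral genes *Rsad2* by 0.79 ± 0.16 (SE, adjusted p = 0.00376), *Ifit2* by 0.71 ± 0.14 (SE, adjusted p = 0.00245), *Ifit1* by 0.56 ± 0.14 (SE, adjusted p = 0.0286) and *Rtp4* by 0.50 ± 0.12 (SE, adjusted p = 0.0239), and *Irf7*, a transcription factor of the interferon response, by 0.69 ± 0.17 (SE, adjusted p = 0.0238). *Irf7* was at 35.9, 37.4, 31.9 and 25.2 CPM in the male hearts at 1 week and at 13.4, 18.1 and 24.8 at 6 weeks. *Irf7* was at 28.6, 26.5, 24.4 and 28.2 CPM in the female hearts at 1 week and at 15.5, 19, 19.8 and 18 at 6 weeks. Neither sex showed an overlap of its 1- and 6-week libraries. The count was 2 without male replicate 1 at 6 weeks or with library size as a covariate, and 3 without male replicate 4 or female replicate 1 at 6 weeks. Of 15 targets of interferon gamma 0 were called by limma (1 at an unadjusted p under 0.05), edgeR or DESeq2, with a median of -0.14. Over all genes 12.45% were at that unadjusted p in the average.

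**Figure D4:**
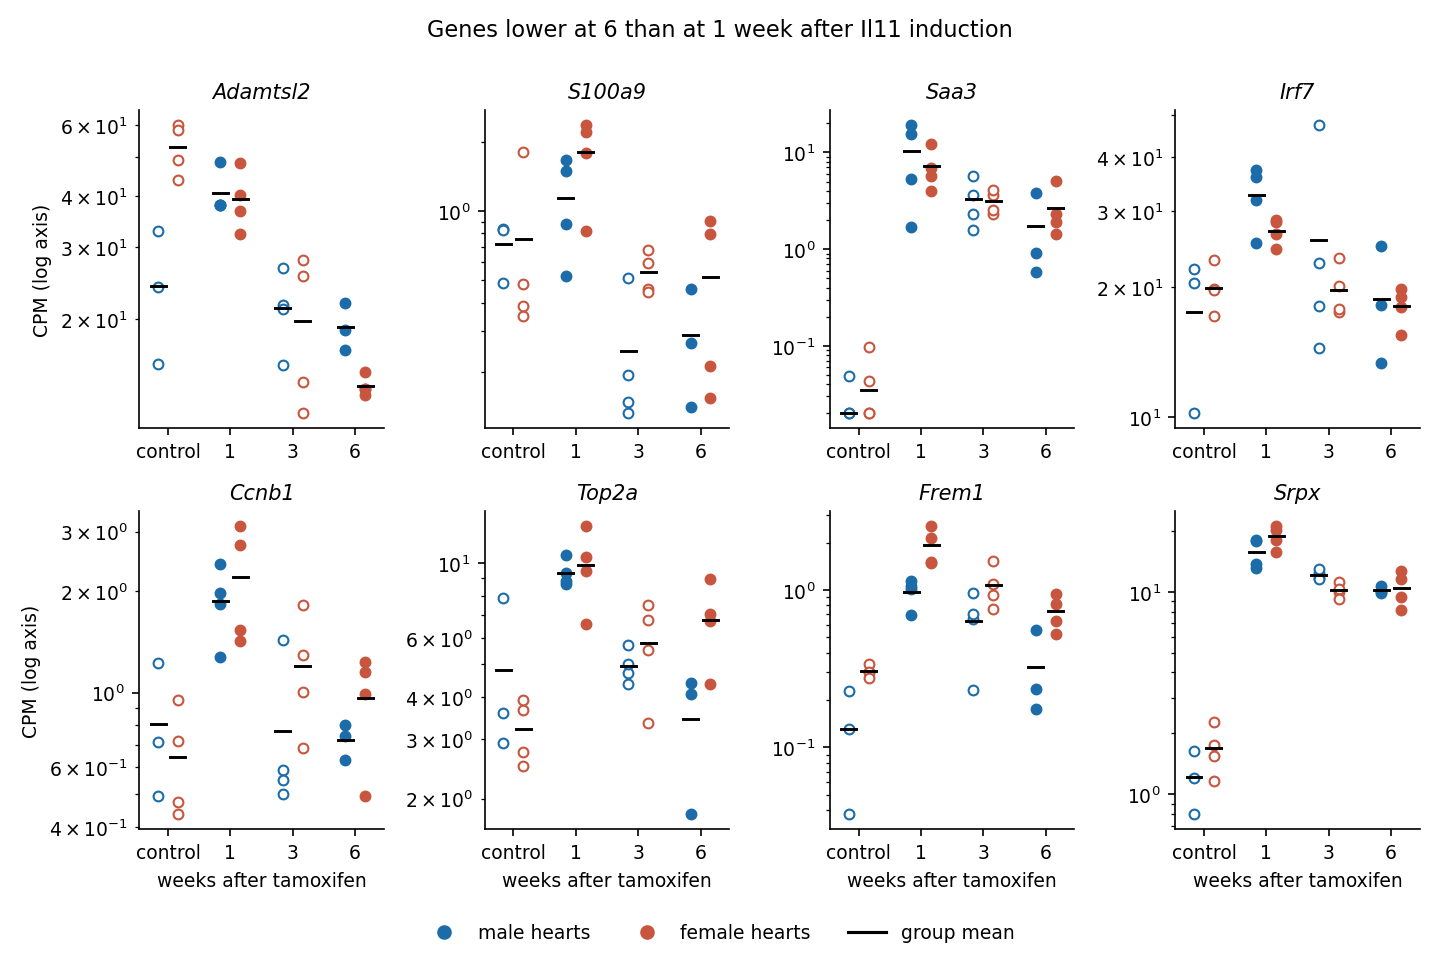
CPM (log axis) of 8 genes that fell, drawn as for the genes that rose, with 1 point a library, black bars at group means and values under 0.02 drawn at 0.02. The 6-week points of *Adamtsl2*, *Irf7*, *Ccnb1*, *Frem1* and *Srpx* lie below the 1-week points in both sexes.

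Among stromal and muscle genes, *Frem1*, a basement membrane protein gene, fell by 0.92 ± 0.15 (SE, adjusted p = 0.000169) and *Srpx*, a secreted sushi-domain protein gene, by 0.71 ± 0.12 (SE, adjusted p = 0.000233). *Srpx* was at 13.7, 17.8, 18.1 and 13.1 CPM in the male hearts at 1 week and at 10.8, 9.96 and 9.86 at 6 weeks. *Srpx* was at 15.8, 21.3, 20.2 and 18 CPM in the female hearts at 1 week and at 9.43, 12.7, 11.6 and 8.17 at 6 weeks. The 6-week hearts of each sex were below the 1-week hearts and above the control means of 1.21 and 1.69 CPM. The troponin T genes of skeletal muscle *Tnnt1* and *Tnnt3* fell by 1.26 ± 0.27 (SE, adjusted p = 0.00549) and 1.32 ± 0.32 (SE, adjusted p = 0.0215), and skeletal actin, *Acta1*, a fetal and stress gene of the heart, by 1.61 ± 0.44 (SE, adjusted p = 0.0464), which lost its call in 16 of 27 alternatives. *Acta1* was at 1434, 639.8, 541 and 169.9 CPM in the male hearts at 1 week and at 49.8, 87.3 and 204 at 6 weeks. Male replicate 1 at 1 week was more than 2 times any other heart, and replicate 4 at each time broke the separation. *Nppa*, which encodes atrial natriuretic peptide, was not called, at -2.34 ± 0.56 (SE, adjusted p = 0.109) in males and -0.04 ± 0.59 (SE, adjusted p = 0.985) in females. *Nppa* was at 870, 494, 429 and 220.4 CPM in the male hearts at 1 week and at 171, 69.2 and 57.9 at 6 weeks. Its male 6-week hearts were below the 1-week hearts and above the control mean of 36.2 CPM. The pacemaker channel gene *Hcn2* fell by 0.78 ± 0.16 (SE, adjusted p = 0.00376) and the kinase gene *Nrk* by 0.85 ± 0.14 (SE, adjusted p = 0.000183). *Hcn2* was at 17.1, 18.5, 18 and 18 CPM in the female hearts at 1 week and at 7.53, 8.76, 8.25 and 9.37 at 6 weeks. The female times separated, and the controls were higher than both, with a mean of 36 CPM. *Fam81a* fell by 0.82 ± 0.15 (SE, adjusted p = 0.000896).

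In females 3 of 7 erythroid genes fell, among them *Alas2*, the first enzyme of erythroid haem synthesis, by 1.67 ± 0.36 (SE, adjusted p = 0.023), and the band 3 gene *Slc4a1* by 1.46 ± 0.22 (SE, adjusted p = 0.000982). *Slc4a1* was at 1.74, 1.3, 2.09 and 2.73 CPM in the female hearts at 1 week and at 0.714, 0.258, 0.211 and 0.401 at 6 weeks. The 1-week libraries were all above the 6-week libraries. The alpha globin gene *Hba-a2*, whose reads may be shared with *Hba-a1*, was at -1.65 ± 0.41 (SE, adjusted p = 0.0572) in females. All 7 erythroid genes were negative in females and all 6 tested were positive in males, where replicate 4 was the 6-week heart with the highest *Hba-a1*. Female hearts alone also gave calls for *Hmcn2*, which encodes the matrix protein hemicentin-2 and fell by 1.31 ± 0.19 (SE, adjusted p = 0.000501), and for *Timp4*, an inhibitor of matrix metalloproteinases, which fell by 1.09 ± 0.25 (SE, adjusted p = 0.0329). *Timp4* was at 14.2, 10.6, 12.3 and 11.4 CPM in the female hearts at 1 week and at 6.03, 2.92, 5.97 and 7.95 at 6 weeks. The female 6-week values all lay below the 1-week values, while male values overlapped, at -0.14 ± 0.45 (SE, adjusted p = 0.908). *Dio2*, which activates thyroid hormone, was called lower in males by 1.28 ± 0.24 (SE, adjusted p = 0.0362) and was at 0.14 ± 0.36 (SE, adjusted p = 0.895) in females. *Ppbp*, a platelet chemokine, was called higher in males at 1.76 ± 0.34 (SE, adjusted p = 0.0391) and was at 0.05 ± 0.32 (SE, adjusted p = 0.96) in females. *Retnla*, a gene of alternatively activated macrophages, rose in males by 1.72 ± 0.28 (SE, adjusted p = 0.0177) and on average by 1.58 ± 0.28 (SE, adjusted p = 0.000682). Of 18 alternatives the male call was kept in 9 for *Dio2*, 8 for *Ppbp* and 13 for *Retnla*.

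Several lists held no called gene on average. Over all genes, 2070 of 16627 (12.45%) had an unadjusted p under 0.05 in the average, to be set beside the unadjusted counts here. MHC class I and the immunoproteasome had 0 of 13 called by limma, edgeR or DESeq2, and 0 at an unadjusted p under 0.05, with *H2-K1* at 0.15 ± 0.14 (SE, adjusted p = 0.708) and *H2-D1* at 0.16 ± 0.12 (SE, adjusted p = 0.656). IL11 signalling had 0 of 15 by the same tools, with 1 at an unadjusted p under 0.05. The receptor gene *Il11ra1* was at 0.29 ± 0.11 (SE, adjusted p = 0.197). In females *Cish*, a feedback inhibitor, fell by 0.67 ± 0.15 (SE, adjusted p = 0.0308). In males *Cish* went the other way, at 0.59, and was not called. Cardiomyocyte identity had 0 of 20 by limma, with 5 at an unadjusted p under 0.05, 1 lower by edgeR and 2 lower by DESeq2. The lowest of that list was *Mylk4*, a myosin light chain kinase gene, at -1.16 ± 0.32 (SE, adjusted p = 0.0518). *Mylk4* was at 26.6, 23.2, 25.5 and 13.3 CPM in the male hearts at 1 week and at 6.19, 10.1 and 15.6 at 6 weeks. *Mylk4* was at 35, 18.5, 35.1 and 23.9 CPM in the female hearts at 1 week and at 8.36, 15.5, 8.25 and 13.9 at 6 weeks. Controls had means of 191 and 213 CPM, far above both times. Next to it, *Kcnip2*, a subunit of the transient outward potassium channel, was at -0.58 ± 0.17 (SE, adjusted p = 0.0742). Endothelium had 0 of 20, with 4 at an unadjusted p under 0.05 and 0 by the other tools, where the highest, the P-selectin gene *Selp*, was at 0.84 ± 0.27 (SE, adjusted p = 0.12), and smooth muscle and pericytes 0 of 12, with 2 and 0. Immediate early genes had 0 of 15 (1 unadjusted) and clock genes 0 of 16 (0 unadjusted), each with 0 by the other tools. Among 20 genes of fatty acid oxidation and respiration *Ech1*, an enzyme of fatty acid breakdown, rose by 0.44 ± 0.10 (SE, adjusted p = 0.0118). Mesothelial markers (0 of 8) and atrial markers (0 of 4) were not called either.

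The genes that the study names as rising late were read as a list of 11 tested on average, of which 10 were higher. The study chose them on these samples, so the count is not independent evidence of their direction. The exception was the immunoglobulin gene *Ighg2c*, at 0.96 ± 0.31 (SE, adjusted p = 0.122), while *Igf2*, a growth factor gene, was called at 0.94 ± 0.26 (SE, adjusted p = 0.0481) but kept its call in only 10 of 27 alternatives and lost it without male replicate 4 or replicate 1 at 6 weeks. *Igf2* was at 0.469, 1.11, 1.53 and 1.84 CPM in the male hearts at 1 week and at 3.98, 1.66 and 12.1 at 6 weeks. Replicate 4 was the highest of the males. Of the 3 tested genes that it names for 1 week 1 fell, *Cxcl1*, and *Tnf* was listed in the male table only. The study's heatmap of these genes is of male hearts, while the counts above are averages over the sexes. In males alone 6 of the 11 late genes tested were called higher. Of the 4 genes named for 1 week and tested in males 0 were called, though all 4 were negative.

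Called genes were also placed by their change against controls at 1 week, with a limit of 1 on the log2 scale. The comparisons share the 1-week libraries, so the classes are a description with no test. Of the 227 genes called higher on average, 115 were already past that limit at 1 week and rose further (progressive), 108 were within it at 1 week (late-onset) and 4 rose from more than 1 below the controls (*mt-Ti*, *Kit*, *Ech1* and *C1qtnf9*). Progressive genes had medians of 1.76, 2.26 and 2.63 above controls after 1, 3 and 6 weeks, and late-onset genes of 0.47, 0.78 and 1.08. Late-onset genes included *Crabp2*, at 0.88 and 2.62 above controls at 1 and 6 weeks, and *F5*, at 0.91 and 2.85. These classes rest on the average of the sexes and can differ in 1 sex. At 1 week *F5* was at 0.76 in males and at 1.07, past the limit, in females. *Crabp2* was at 0.28 in females, so with an average of 0.88 its male value lay past the limit. Progressive genes included *Efemp1*, at 2.04 and 3.58, and *H2-Aa*, at 1.62 and 3.34. Where the controls held few reads the value against them depends on the pseudocount. Of the 81 genes called lower, 10 stood more than 1 above controls at 1 week (early-high: *Saa3*, *Tnnt3*, *Cfd*, *Top2a*, *Frem1*, *Ccnb1*, *Aurkb*, *Pbk*, *Srpx* and *Ifi27l2a*), with medians of 1.32, 0.43 and 0.44. Of these, *Srpx* at 2.50, *Saa3* at 2.16 and *Ifi27l2a* at 1.03 were still more than 1 above controls at 6 weeks. The other 71 had medians of 0.15, -0.16 and -0.32.

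The 3-week hearts lay between 1 and 6 weeks for 221 of the 227 rising and 78 of the 81 falling genes. The median rising gene had made 54.62% of its change by 3 weeks and the median falling gene 66.46%. Choosing genes on the outer times places the middle one between them in part, so this too is a description.

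**Figure D5:**
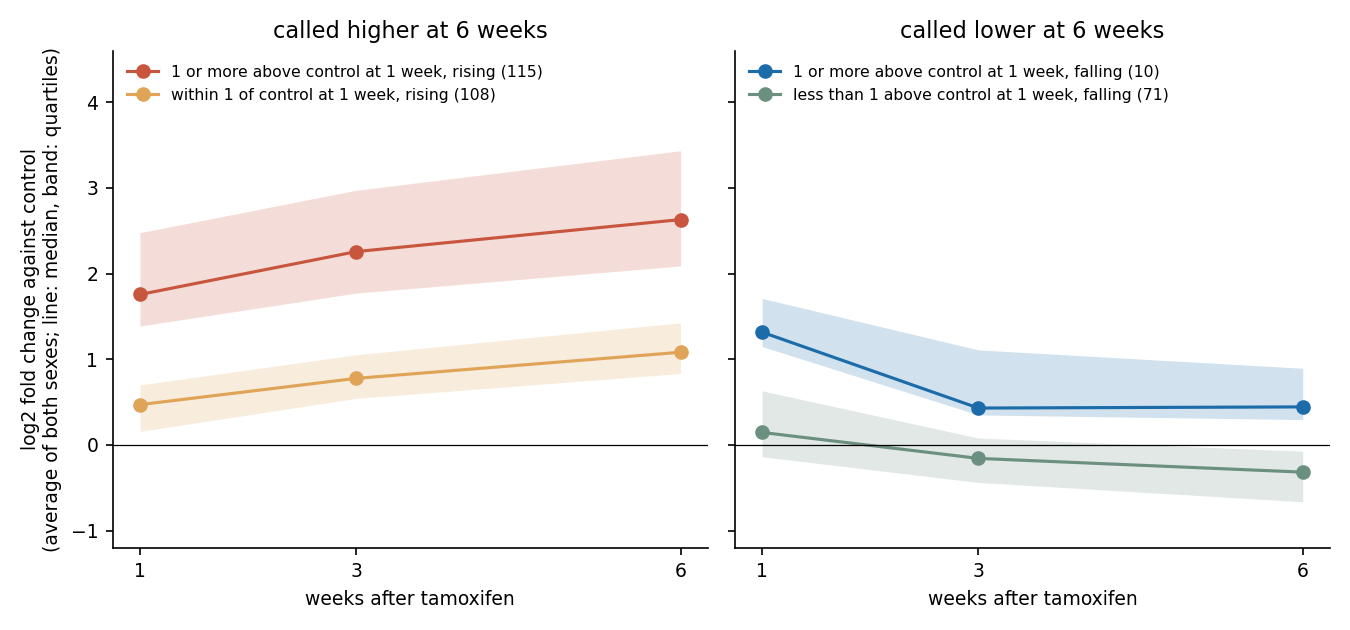
Median (points) and quartiles (shaded bands) of the log2 change from control after 1, 3 and 6 weeks, averaged over the sexes. The classes are the progressive (115), late-onset (108), early-high (10) and falling (71) genes. The 4 genes that rose from more than 1 below the controls are not drawn. The progressive and late-onset medians climb at each time, and the early-high median drops between 1 and 3 weeks, to 0.43, and stays near it at 6 weeks.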

How the data were processed

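PolyA RNA of mouse hearts was sequenced with a directional kit. STAR alignment to GRCm39 and featureCounts on Ensembl genes were followed by edgeR, and the authors deposited the normalised signal, in CPM, as 1 table for each sex, with 17646 genes in males and 17223 in females. The rule that had removed other genes and the strand setting of the counting are not given in the sources used here. Once divided by a factor per library, 100% of the entries fell within 0.001 of an integer, and these whole reads were recovered, with 16663513 to 65333832 reads per male and 19147947 to 30929192 per female library.

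Each sex was fitted with limma 3.58.1 in R 4.3.3 (trend, log2(CPM + 0.5)) with its 5 groups in 1 fit, on genes at 0.5 or more in at least 3 libraries, with Benjamini-Hochberg adjustment over all genes tested. A joint fit of genes tested in both sexes gave the average and the difference between the sexes. The tables were scaled separately, so levels were not compared across sexes. The members and lists were chosen with earlier results of these data known. Named genes are those called in both sexes, the 10 largest called rises and falls without overlap in each sex and on average, 2 to 4 members of each list with the smallest p, *Il11* and the genes that the study names. Some genes that this rule names are not reported here. Other list members and genes were chosen after their values were seen. Cell type lists came from general knowledge.

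Other settings tried were a pseudocount of 0.1 or 2, the filter left out or set at 1 in 4 libraries, median-of-ratios and TMM scaling, edgeR 4.0.16 and DESeq2 1.42.0 on recovered reads, the 1- and 6-week groups alone, a replicate block, library size as a covariate, a minimum log2 change of 1, each library left out, and, chosen after seeing the data, both female libraries with atrial genes left out. The models were tested on simulated data with known changes. The 2 libraries with contradictory labels entered no comparison.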

Additional observations from a re-analysis of the deposited data

Results flagged for a closer look

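In groups of 4 hearts, 1 heart was set apart from the others by Dixon's 95% criterion for 6 of the 171 groups of named genes reported here (3.51%), where chance alone gives about 1 in 20. In males at 1 week, replicate 1 held *Adamtsl2* at 48.64 CPM against 38.1 to 38.16 in the other hearts, *Cdca3* at 1.406 against 2.06 to 2.121 and *Cacng6* at 0.5021 against 1.396 to 1.573. In females at 1 week, *Hmcn2* was at 22.99 in replicate 2, one of the libraries with atrial *Myl7*, against 35.17 to 37.63. In females at 6 weeks, *Alas2* was at 2.81 in replicate 3 against 10.23 to 12.69, and *Knstrn* at 0.709 in replicate 4 against 1.203 to 1.308.

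*Il11* stood at 511.2 CPM in the male library that its title places among the controls and its description at 6 weeks, a library that entered no comparison, against a mean of 0.0867 in the 3 male controls.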

How the results depend on the processing

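Calls at an adjusted p under 0.05 between 6 and 1 weeks were counted again under each alternative. In males, where the count was 28, it was 14 with a pseudocount of 0.1, 46 with a pseudocount of 2, 207 with DESeq2, 3 with the 1- and 6-week groups alone and 3 with library size as a covariate. In females, from 175, it was 305 with DESeq2, 109 with the 2 groups alone and 83 with a minimum log2 change of 1. The average over the sexes, from 308, was 169 with the 2 groups alone, 172 with library size as a covariate and 60 with the minimum change. The difference between the sexes, at 0, was 238 with DESeq2. Leaving out 1 library at a time gave 2 to 136 genes in males (2, 13 and 136 without replicates 4, 3 and 1 of the 6-week group and 15, 8 and 14 without replicates 1, 3 and 4 of the 1-week group), 97 to 368 in females (112, 368, 102 and 97 without replicates 1, 2, 3 and 4 of the 1-week group and 101 without replicate 2 of the 6-week group), 207 to 340 on average and 0 to 859 for the difference, with 859 without male replicate 1 and 45 without female replicate 1 at 6 weeks, 63 without female replicate 2 and 1 without male replicate 4 at 1 week, and for *Il11* a log2 difference of 0.00417 to 0.526 in males and -0.208 to 0.0746 in females, whose sign changed without replicate 4 at 1 week or replicate 3 at 6 weeks. The cause of these moves was not tested. The share of calls that were higher was 78.57% in males and 73.7% on average, and was 100% of 3 male calls with the 2 groups alone or library size as a covariate, 60% (without replicate 1 at 1 week) to 100% over the fits that left out 1 male library, and 88.33% on average with the minimum change. Apart from the replicate block, the remaining settings left the counts within 1.5 times. No named gene that was called changed its direction in any setting: on average 1773 of 1961 pairs of gene and setting kept the call and 188 did not, in females 922 of 1018, and in males 285 of 468.

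Residual correlations were used to see whether equal replicate numbers pair these hearts. In males they were -0.059 to 0.014 for equal numbers and -0.141 to 0.183 for unequal ones. The equal numbers lay within the range of the unequal ones, but so few pairs cannot exclude pairing. In females they were -0.028 to 0.563 for equal numbers and -0.653 to 0.338 for unequal ones. The female values for replicates 1 and 2, at 0.359 and 0.563, were the highest, and both replicate 2 libraries held atrial *Myl7*. Whether the numbers pair the hearts was not settled in either sex. With a replicate block 13 genes were called in males (92.31% higher), 207 in females, 287 on average and 0 for the difference. In males depth differs between the groups, and its part in the calls was not tested beyond the covariate.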

Other observations

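Other secreted and surface factors, chosen here after their values were seen, were also among the genes called higher on average at 6 weeks. Against controls, *Chl1*, a neural cell adhesion gene, stood at a log2 value of 4.58 at 1 week and 5.84 at 6 weeks, *Ccn5*, a matricellular factor, at 4.21 and 5.24, and *Fgf23*, a hormone of phosphate balance, at 3.25 and 4.33. The eosinophil chemokine gene *Ccl11* stood at 2.60 and 3.48 and *Inhbb*, an activin subunit gene, at 2.49 and 3.37. Immune receptor genes of low level were in the late-onset class, with *Klrb1b* at 0.50 and 1.71, *Slamf7* at 0.79 and 1.98 and *Siglech*, a marker of plasmacytoid dendritic cells, at 0.51 and 1.35. These values share the 1-week and control libraries and depend on the pseudocount where controls held few reads.

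The male library titled as a control and described as 6 weeks held *Serpina3n* at 1559 CPM, *H2-Aa* at 376.3, *H2-Ab1* at 168.9, *Cxcl13* at 54.27, *Efemp1* at 51.36, *Adamtsl2* at 22.65 and *F5* at 4.84. The male library titled as 6 weeks and described as a control held *Il11* at 0.597 CPM, *Serpina3n* at 4.66, *H2-Aa* at 38.65, *H2-Ab1* at 32.04, *Cxcl13* at 0.0398, *Efemp1* at 5.93, *Adamtsl2* at 28.3 and *F5* at 0.279.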
